A study of Mus musculus with 14 samples.

Results

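Etv1, Etv4 and Etv5 are 3 of the 31054 genes counted in single-cell RNA sequencing (scRNA-seq) of mouse hindbrain cells sorted for the Atoh1 lineage. The 3 genes were followed here by name through every cell class, stage and genotype. They form the PEA3 subfamily of the ETS transcription factors. Their transcription is a standard readout of fibroblast growth factor (FGF) signaling through RAS and ERK: the repressor Capicua (Cic) sits on their regulatory DNA, ERK relieves that repression, and Sprouty, Spred and Dusp genes switched on by the same pathway feed back to damp it. In the developing brain FGF signals pattern the midbrain-hindbrain boundary and act on glia and cerebellar progenitors, and Etv1 also marks particular classes of maturing neurons.

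The cells were sorted for TdTomato, which labels the offspring of Atoh1-expressing progenitors of the rhombic lip. These include granule cells of the cerebellum and neurons of the pontine nuclei (PN). At P5, 1129 microglia-like and 1430 oligodendrocyte lineage-like cells were kept as well, so not every kept cell need be of this lineage. Control embryos were Atoh1Cre/+; Rosa lsl-tdTomato/+, and embryos with a hypomorphic Atoh1 allele were Atoh1Cre/S193A; Rosa lsl-tdTomato/+, called Atoh1S193A/- here. All were on C57BL/6J, and since Cre replaces the coding region of 1 Atoh1 copy, the controls also carry 1 null copy. Hindbrains were taken at E14.5 and E18.5, with 3 littermate pairs per stage and 1 embryo per library, and control PN were dissected at P5 from pools of 11 to 13 pups in 2 libraries, with no second genotype. The TdTomato label is inherited, so a sorted cell may no longer express Atoh1.

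Of 150188 barcodes in 14 libraries, 80250 cells were kept: 34425 at E14.5, 31819 at E18.5 and 14006 at P5. Total UMIs per library ran from 108239001 to 236964126, and any pair of libraries shared at most 67 barcodes. Atoh1 itself stood at 159 ± 34 CPM (the gene's part of all UMIs summed over the class in a library, scaled to parts in 1e6; mean ± SD, n = 3) in cycling granule progenitor-like cells of E14.5 controls and at 192 ± 34 in their Atoh1S193A/- littermates, and at 53.5 ± 3.3 and 68.1 ± 8.8 at E18.5. A count of 3' UMIs does not see the S193A change, so these levels do not test the genotype labels. The second E14.5 pair stood apart: granule lineage-like cells made up 7.08% of its kept control cells and 5.19% of its Atoh1S193A/- cells, against 22.7% to 27.0% in the other 4 E14.5 libraries.

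Cells were clustered without the 3 genes and without 58 genes of the FGF and ERK pathway, and clusters were named by marker genes. A class name ending in "-like" is such a rebuilt name. Since the same cells made the clusters and gave the levels, differences between classes are described and not tested. Each library counts 3' ends, so CPM was not divided by transcript length.

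On the mm10 genome (GRCm38), Etv1 (ENSMUSG00000004151) lies on chromosome 12 from 38779380 to 38870484 on the plus strand, Etv4 (ENSMUSG00000017724) on chromosome 11 from 101769742 to 101785371 on the minus strand, and Etv5 (ENSMUSG00000013089) on chromosome 16 from 22381309 to 22439719 on the minus strand. The RefSeq promoter table held 250 bases upstream of 2 start sites each for Etv1 and Etv5. They were searched on both strands for 8 forms of the octamer bound by Capicua: TGAATGAA, TGAATGAG, TGAATGGA, TGAATGGG, TCAATGAA, TCAATGAG, TCAATGGA and TCAATGGG. One window held the octamer 3 times, the second Etv5 promoter at chr16:22438369-22438618 on the minus strand (GRCm38.p6), which lies inside the Etv5 gene and overlaps none of its annotated exons. It is shown because Etv5 is the member whose level differed most, in absolute CPM, between granule groups below, with the octamers in capitals:

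Etv5 second promoter: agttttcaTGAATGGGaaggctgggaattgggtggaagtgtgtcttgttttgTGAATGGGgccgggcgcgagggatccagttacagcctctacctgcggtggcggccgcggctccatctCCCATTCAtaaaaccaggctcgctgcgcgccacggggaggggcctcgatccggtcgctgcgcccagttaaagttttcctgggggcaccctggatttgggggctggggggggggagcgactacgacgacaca

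The octamers begin 242, 198 and 131 bases upstream of the start site, and the last is read on the opposite strand. Of 32851 promoters of the same length, 5.86% held at least 1 such octamer, 0.35% at least 2 and 0.0578% (19 promoters) at least 3. The other Etv5 window and both Etv1 windows held none. The octamer was picked with the sequence in view, and a match in letters describes the sequence, not binding.

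At E14.5 and E18.5, glia-like cells held the highest mean level of all 3 genes among the classes named in the main clustering, and among the Atoh1-lineage neurons and progenitors the granule lineage held Etv4 and Etv5 while most pontine-like cells held little of either. Hox-low other progenitors, which are outside that lineage, also held both. In E14.5 controls, Etv1 in glia-like cells was 65.9, 110 and 89.6 CPM in replicates 1, 2 and 3, from 20 to 38 cells a library, and did not overlap the next class. Etv4 there was 27.1, 19.5 and 25.9 CPM, again apart from all others. Etv5 was 11.6, 41.5 and 39.8 CPM, which overlapped the granule progenitors.

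At E18.5 the glia-like cluster gave 50.7, 39.8 and 88.0 CPM of Etv1, 50.7, 23.9 and 56.0 CPM of Etv4 and 47.4, 23.9 and 73.0 CPM of Etv5 in controls, from 29 to 81 cells. Only Etv4 was apart from the next class. No E18.5 cluster took the glia-like name at 10% mitochondrial UMIs or at resolution 2, and the E14.5 class of 172 cells became 604 and 782 cells there, so that the first place of this class was read in the main clustering alone. This cluster was mixed: beside the astrocyte gene Aqp4 at 478 ± 167 CPM, it held the microglial gene C1qa at 288 ± 50 CPM, whereas the E14.5 glia-like cluster had no UMI of C1qa. The macrophage genes Pf4 and Mrc1 stood at 49.3 ± 85.5 and 31.4 ± 43.4 CPM in E18.5 controls and at 412 ± 461 and 149 ± 119 CPM in Atoh1S193A/- libraries. Their part in the levels of the 3 genes was not tested.

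**Figure D1:**
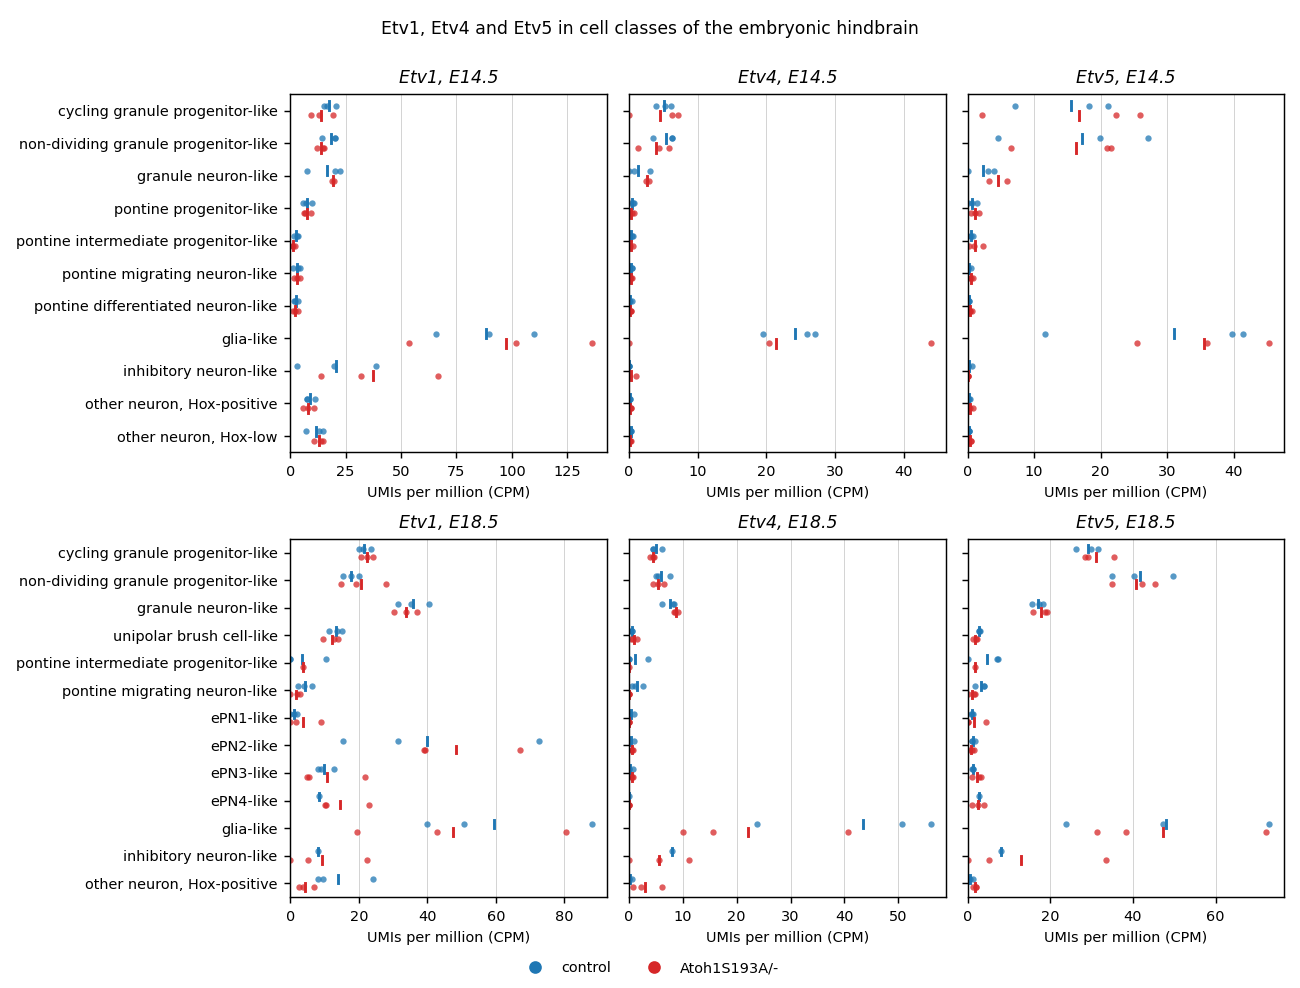
Levels of Etv1, Etv4 and Etv5 by cell class at E14.5 (top) and E18.5 (bottom), in CPM on a linear axis that differs between panels. Each point is 1 library with at least 10 cells of the class, blue for control and red for Atoh1S193A/-, and vertical ticks are group means; glia-like cells have the highest control mean in every panel, and the second E14.5 pair gives the low Etv5 points of the granule progenitors.

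Ordered by control means, many neighbouring classes overlapped in their library values. At E14.5, 11 of 13 neighbours overlapped for Etv1, 10 of 13 for Etv4 and 13 of 13 for Etv5. At E18.5 the counts were 8 of 10, 8 of 10 and 6 of 10. The order is therefore firm only across several ranks.

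At E14.5, Etv1 was spread over many classes. After the glia-like cells came inhibitory neuron-like cells at 20.6 ± 17.8 CPM, granule lineage-like classes between 16.7 ± 7.9 and 18.4 ± 3.4 CPM, roof plate and dorsal rhombic lip-like cells at 16.4 ± 7.3 CPM (12.2 ± 1.5 without control 2), and Hox-low other progenitors at 14.2 ± 2.5 CPM, all of which overlapped their neighbours in the order. The inhibitory neuron-like libraries were unequal, with 3.20, 38.8 and 19.6 CPM and a mean of 11.4 ± 11.6 without control 2. The class joins a cluster led by Foxp2, Ebf1 and Nrxn3, with 10.7, 61.8 and 43.2 CPM of Etv1, and one led by Hoxb8, Hoxa5 and Hoxb5, with 1.56, 12.1 and 0 CPM. In granule neuron-like cells, where control 2 had 26 cells, the mean of Etv1 without it was 21.2 ± 1.7 CPM. Pontine progenitor-like cells at 7.61 ± 1.96 CPM did not overlap the 3 later pontine states, which lay between 2.50 ± 1.01 and 3.07 ± 1.71 CPM. They rest on 14, 15 and 11 UMIs and were uneven: a sub-cluster with the glial gene Fabp7 among its leading genes had 32.5, 7.75 and 17.0 CPM from 8, 8 and 10 cells, while a larger one with Hes5 among its leading genes had 3.34, 0 and 6.20 CPM, which overlapped the later states.

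Etv4 and Etv5 were narrower. Etv5 in cycling granule progenitor-like cells of E14.5 controls was 18.3, 7.20 and 21.1 CPM, and in the non-dividing ones 19.9, 4.57 and 27.1 CPM. Control 2 was the low library in both. Without it the means were 19.7 ± 2.0 and 23.5 ± 5.1 CPM (n = 2), and glia-like cells stood at 25.7 ± 19.9 CPM. Etv4 in the same classes was 6.18, 3.91 and 5.30 CPM, and 6.34, 3.53 and 6.24 CPM. Hox-low other progenitors of the same libraries overlapped them, with 4.18 ± 0.64 CPM of Etv4 (n = 3) and 5.47, 10.8 and 9.43 CPM of Etv5.

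In the pontine lineage at E14.5, Etv5 was 0.679 ± 0.699 CPM or lower on average in each of the 4 states. In pontine progenitor-like cells it was 1.40, 0 and 0.641 CPM, and the 0 among 111 cells of control 2 allows up to 1.20 CPM (3 UMIs; such limits cover counting error only). Summed over these classes, the pontine and the granule progenitors, both products of the rhombic lip, thus had Etv5 ranges that did not overlap. This held also with the low library included. By cluster it did not hold: a non-dividing granule progenitor-like cluster had a control mean of 0.938 CPM, inside the pontine range.

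By E18.5 the granule lineage made up 65.9% to 73.4% of the kept control cells. Etv5 in cycling granule progenitor-like cells was 29.8, 26.3 and 31.5 CPM (655 to 1047 UMIs a library), in the non-dividing ones 40.2, 35.0 and 49.6 CPM, and in granule neuron-like cells 18.2, 15.5 and 17.2 CPM. The 3 classes did not overlap. Summed over these classes, Etv5 was thus lower in the neurons than in the progenitors of the same libraries. It was lower again in unipolar brush cell-like cells at 3.01, 2.74 and 2.82 CPM. The classes join groups that differ in Etv5, and the split below did not show this order in each of them.

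Summed over the same classes, Etv1 ran the other way along the granule lineage. It was 19.9, 21.1 and 23.5 CPM in cycling progenitors, 15.4, 17.8 and 19.97 CPM in non-dividing ones, and 31.6, 35.2 and 40.5 CPM in the neurons. The neurons lay above both progenitor classes, which overlapped each other. Etv4 in the same order was 4.52, 4.49 and 6.06 CPM, then 4.95, 5.41 and 7.71 CPM, then 8.17, 6.22 and 8.31 CPM, so that the neurons lay just above the cycling progenitors and overlapped the non-dividing ones.

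The share of cells with an Etv5 UMI followed the levels. With each cell thinned to 5000 UMIs, it was 9.70 ± 1.56% of cycling granule progenitor-like cells at E18.5 and 7.09 ± 2.28% at E14.5, against 23.8% and 19.0% before thinning. In unipolar brush cell-like cells and ePN1-like neurons, taken as low classes from these same data, 0.814 ± 0.182% and 0.483 ± 0.837% had an Etv5 UMI after thinning. Median depths per library were 18074 to 24738 UMIs in the cycling progenitors, 9595 to 12126 in the unipolar brush cell-like cells and 14642 to 20324 in the ePN1-like neurons.

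Detection of Etv4 and Etv5 in the same cells was read within classes. Among thinned cycling progenitors of E18.5 controls, Etv5 was found in 31.0%, 48.0% and 40.6% of the 29, 25 and 32 cells with an Etv4 UMI, and in 9.45%, 7.29% and 10.2% of the others. In Atoh1S193A/- libraries the values were 34.7%, 30.8% and 42.1% against 8.97%, 9.92% and 11.5%. Cells with an Etv4 UMI thus had the higher share in all 6 libraries of this class, which joins clusters that differ in the level of both genes. In glia-like controls the cells with an Etv4 UMI were few and the shares went either way: at E14.5 none of 1, 1 and 7 had an Etv5 UMI, against 6.25%, 17.9% and 19.2% of the others, and at E18.5 it was 50%, 50% and 16.7% of 2, 2 and 12, against 22.2%, 11.5% and 26.1%. In non-dividing granule progenitor-like cells of E14.5 controls the shares were 0%, 14.3% and 6.67% among 11, 7 and 15 cells, against 10.9%, 1.26% and 11.6%. No difference between classes was tested.

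The E18.5 granule lineage was then split by 2 transcription factor genes that vary within it, Otx2 and Tlx3. Clusters above 300 CPM of Otx2 were called Otx2-high, other clusters above 70 CPM of Tlx3 were called Tlx3-high, and the rest are low in both. These limits were set after the cluster values had been seen. The Tlx3-high progenitors had the highest Etv5 level of the 3 groups. In controls, Etv5 was 76.2, 67.5 and 82.3 CPM there, 11.2, 13.4 and 13.4 CPM in progenitors low in both, and 7.496, 6.61 and 7.55 CPM in Otx2-high progenitors.

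None of these groups overlapped another. Etv4 had the same order, at 11.3, 11.8 and 14.7 CPM in Tlx3-high, 1.40, 1.40 and 2.36 CPM in low-low and 0.676, 1.18 and 1.29 CPM in Otx2-high progenitors. Etv1 was 26.7, 28.5 and 35.1 CPM, 21.7, 24.5 and 23.7 CPM, and 7.13, 7.39 and 7.73 CPM. Here the Otx2-high group stood apart as the low one.

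Among the granule neuron-like cells the groups kept their order for Etv4 and Etv5 but not for Etv1. Etv5 was 35.0, 37.4 and 32.2 CPM in Tlx3-high neurons, 12.9, 9.91 and 12.9 CPM in those low in both and 6.73, 3.31 and 6.67 CPM in Otx2-high neurons. Etv4 was 15.2, 11.95 and 15.7 CPM, 7.37, 5.90 and 7.53 CPM, and 1.51, 0.974 and 0.833 CPM. Etv1 was alike in all 3, with ranges of 32.5 to 40.9, 31.9 to 40.5 and 30.2 to 40.0 CPM. Against the progenitors of the same group, Etv5 was lower without overlap in Tlx3-high neurons only. In the other groups the Etv5 ranges of progenitors and neurons overlapped. Etv1 was higher without overlap in Otx2-high neurons and in those low in both, while Tlx3-high neurons overlapped the Tlx3-high progenitors.

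**Figure D2:**
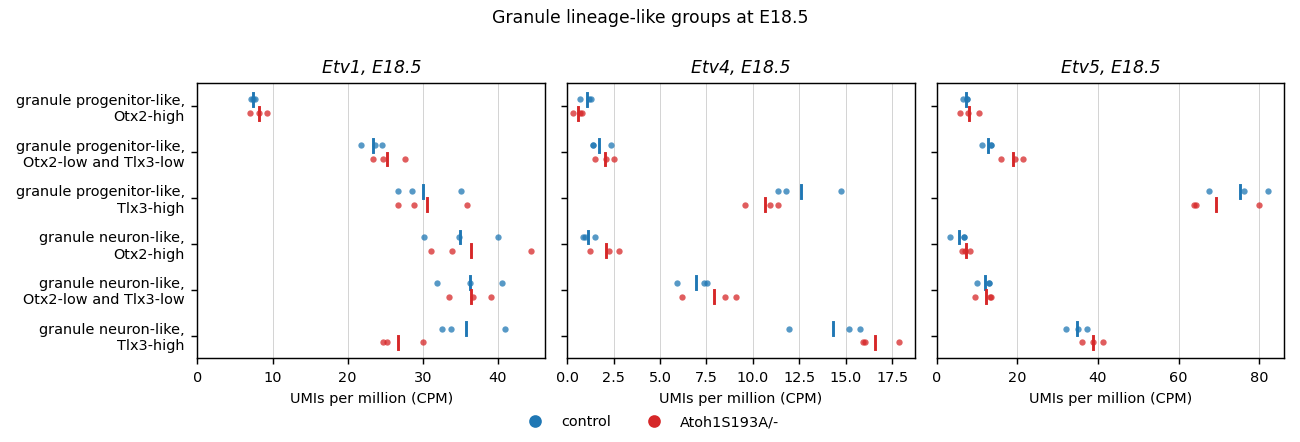
Etv1, Etv4 and Etv5 in granule progenitor-like and granule neuron-like groups at E18.5, in CPM on linear axes. Points are the 3 control (blue) and 3 Atoh1S193A/- (red) libraries and ticks are their means; Etv5 lies between 63.8 and 82.3 CPM in Tlx3-high progenitors of all 6 libraries and below 22 CPM in the other 2 progenitor groups.

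A small population exceeded all of these. Within the progenitors low in Otx2 and Tlx3, clusters with both Mfap4 (a microfibril-associated glycoprotein gene) and Zfp36l1 (an RNA-binding protein gene) among their 10 leading genes held 25, 36 and 36 control cells. Their Etv5 was 153, 180 and 152 CPM. Without these cells the same group had 6.93, 6.04 and 6.497 CPM of Etv5. These values overlapped the Otx2-high progenitors and lay below the granule neuron-like cells low in both. Etv4 there, at 1.12 to 1.44 CPM, overlapped the Otx2-high progenitors as well.

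Of the 5 listed FGF receptor genes, 3 are given here, and Fgfr3 and Fgfrl1 are not. The 3 given were high in the same small population. Fgfr1 was 145 ± 7 CPM against 27.7 ± 0.7 CPM in the rest of its group, Fgfr4 was 100 ± 14 against 6.69 ± 2.87 CPM, and Fgfr2 was 17.2 ± 0.5 against 1.08 ± 0.20 CPM. It had no UMI of the ligand gene Fgf8 in controls. Etv4 there was 6.54, 7.83 and 20.8 CPM, from 3 to 10 UMIs a library, and Etv1 26.2, 25.4 and 37.4 CPM.

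The ligand, receptor and feedback genes were read in the same groups of E18.5 controls. The genes given here were picked after their values had been seen. Fgf8, the ligand of the midbrain-hindbrain organizer, was 42.1 ± 0.4 CPM in Tlx3-high progenitors, 2.66 ± 0.47 CPM in Otx2-high and 2.09 ± 0.54 CPM in low-low progenitors. Fgf5 was low in all progenitors, at 1.06 ± 0.25 CPM or less, and reached 76.9 ± 17.2 CPM in Tlx3-high neurons against 19.6 ± 5.2 and 10.7 ± 1.9 CPM in the other neurons.

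Fgf9, a ligand gene found throughout the lineage, had another order. It was 17.5 ± 0.2 CPM in Otx2-high, 43.1 ± 2.3 CPM in low-low and 37.5 ± 2.7 CPM in Tlx3-high progenitors. So of the ligands above, Fgf8 in progenitors and Fgf5 in neurons had their highest mean in the Tlx3-high group, where Etv4 and Etv5 also had theirs.

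The feedback genes did not share 1 pattern. Spry2 was highest in Otx2-high progenitors, at 41.1 ± 6.7 CPM against 6.71 ± 0.55 and 6.93 ± 1.42 CPM in the low-low and Tlx3-high groups. Spred1 was 39.0 ± 3.2, 54.2 ± 3.2 and 67.1 ± 6.4 CPM in the order Otx2-high, low-low and Tlx3-high, and Dusp5 20.2 ± 4.0, 31.2 ± 0.8 and 64.8 ± 11.6 CPM. Dusp6, an ERK phosphatase gene, was 11.6 ± 2.6, 22.7 ± 4.6 and 24.6 ± 2.3 CPM.

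The repressor gene Cic differed little, at 43.8 ± 4.8, 43.3 ± 2.8 and 37.5 ± 3.5 CPM. Fgfr1 was 34.9 ± 3.9, 32.3 ± 1.6 and 42.6 ± 1.3 CPM. Spred1 and Dusp5 thus had their highest progenitor mean in the Tlx3-high group, as Etv5 did, and Spry2 and Cic did not. For Dusp6 the Tlx3-high and low-low means differed by less than the SD of either group.

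At E14.5 the Tlx3-high progenitors also had the most Etv5, with 36.4 and 38.4 CPM in controls 1 and 3. Control 2 had 25 such cells and 10.3 CPM. Otx2-high progenitors, which at this stage include all cycling ones, had 11.9, 6.87 and 16.4 CPM. The group low in both came almost wholly from the second pair at this stage, so that it could not be compared.

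Likeness of pattern was measured over 117 control cluster profiles of all 3 stages, by Pearson's r of log2(CPM + 1) among 13342 genes that reach 20 CPM in some cluster. Etv4 and Etv5 were the nearest gene to each other, with r = 0.836. Spred1 came next for Etv4 (r = 0.747) and for Etv5 it followed Nfatc1 (0.696) and Cdk6 (0.689) with r = 0.682. For Etv1 the order was Spred1 (0.640), Rasa3 (0.621), Etv5 (0.620), Etv4 (0.594) and Plxdc2 (0.587). The profiles share libraries and depth, so these values only describe likeness.

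**Figure D3:**
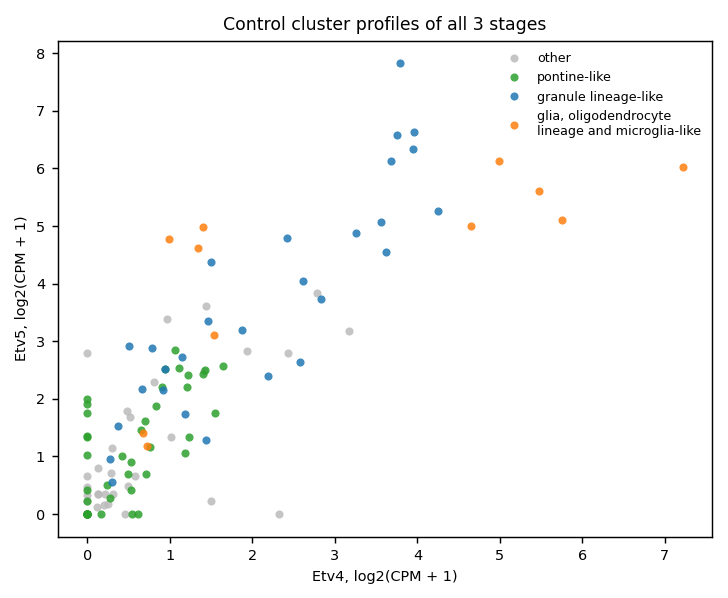
Etv5 against Etv4 in the 117 control cluster profiles, each axis as log2(CPM + 1), with 1 point per cluster of a stage. Colours mark pontine-like, granule lineage-like, glial (with oligodendrocyte lineage and microglia-like) and other clusters; granule lineage-like and glial clusters reach the upper right, while microglia-like clusters lie high in Etv5 and low in Etv4 (r = 0.836 over all).

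In the pontine lineage Etv1 varied most between subtypes. Summed over all pontine-like cells, Etv1 was 2.36, 3.87 and 3.68 CPM in E14.5 controls and 10.4, 7.02 and 27.6 CPM in E18.5 controls. Among the E18.5 subtypes it was 31.3, 15.5 and 72.6 CPM in ePN2-like neurons, 8.20, 8.90 and 12.6 CPM in ePN3-like neurons and 0, 1.07 and 2.04 CPM in ePN1-like neurons. The third control was the high one in every subtype.

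Of the 90, 55 and 459 Etv1 UMIs of these control cells, 42, 22 and 324 lay in 1 sub-cluster, which held 258 cells in both genotypes and was led by Lmo4, Meg3 and Snhg11. Etv1 there was 79.5, 64.6 and 174 CPM in controls and 107, 101 and 166 CPM in Atoh1S193A/- libraries. The ranges of the genotypes overlapped. Its share of the pontine-like cells was 4.80%, 4.00% and 9.12% in controls and 8.55%, 8.04% and 10.9% in Atoh1S193A/- libraries, which overlapped (exact two-sided permutation test without pairing, p = 0.3, where 0.1 is the smallest possible). Within each of the 3 littermate pairs the Atoh1S193A/- share was the higher one. This sub-cluster was singled out for its high Etv1, and its class was ePN2-like. Of 17 pontine-like sub-clusters it scored highest for the genes of the P5 subtype PN6, at 1.37. For the genes of PN1 it ranked 2 of 17, at 1.12. The PN6 list was used without Etv1, and the study chose these lists on these samples. The paper reported that PN6 had no matching cell type at E18.5. Whether this sub-cluster gives rise to PN6 neurons was not tested.

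At P5, Etv1 was 97.6 and 95.7 CPM in the PN6-like cluster of the 2 libraries (346 and 191 cells), against 11.0 and 11.5 CPM in PN4-like, 6.47 and 5.34 CPM in PN1-like and 1.15 and 0.590 CPM in PN3-like neurons. Etv4 and Etv5 in PN6-like neurons were 0.992 and 0.855 CPM and 5.65 and 3.79 CPM, which overlapped the PN1-, PN2-, PN4- and PN5-like neurons for Etv5 and PN4-like and PN5-like neurons for Etv4 and lay above PN3-like neurons for both. Etv5 had a higher mean than Etv1 in PN2-like, PN3-like and PN5-like neurons, at 3.51 ± 0.64 against 2.09 ± 0.49, 2.07 ± 0.53 against 0.869 ± 0.396 and 3.62 ± 0.67 against 2.68 ± 2.00 CPM. After thinning, 26.4 ± 0.6% of PN6-like and 0.950 ± 0.642% of PN3-like neurons had an Etv1 UMI, at median depths of 36305 to 40902 and 24537 to 27806 UMIs.

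**Figure D4:**
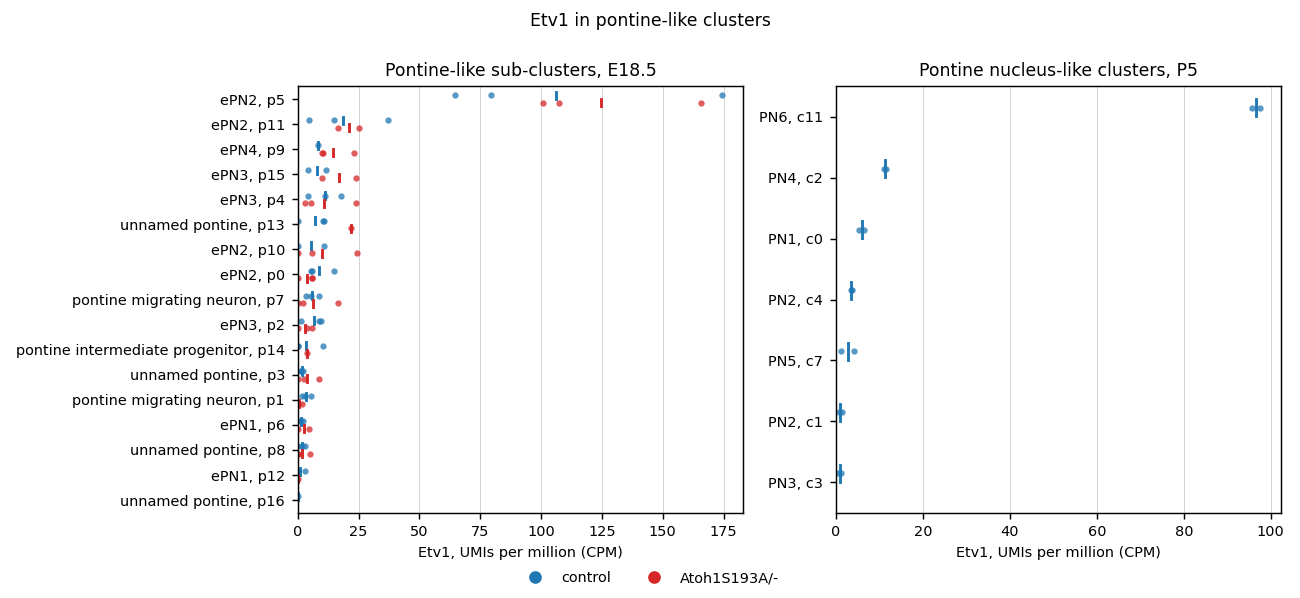
Etv1 in pontine-like sub-clusters at E18.5 (left) and in PN-like clusters at P5 (right), in CPM on linear axes. Points are libraries with at least 10 cells of the cluster, blue for control and red for Atoh1S193A/-, and ticks are means; sub-cluster p5 reaches 64.6 to 174 CPM at E18.5 and the PN6-like cluster 95.7 and 97.6 CPM at P5.

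The P5 dissection also carried cells outside the neuronal lineage in which the 3 genes were high. In the cluster led by Fabp7, Ptprz1 and Pdgfra, a gene of oligodendrocyte precursors, Etv1 was 156 and 137 CPM, Etv4 29.5 and 32.1 CPM and Etv5 75.5 and 63.3 CPM. All 3 genes were thus present there in both libraries, with Etv1 the highest and Etv4 the lowest.

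In the larger glia-like cluster, led by Fabp7 and Apoe, Etv1 was 58.9 and 55.4 CPM, Etv4 56.4 and 49.7 CPM and Etv5 31.9 and 34.8 CPM. A smaller glia-like cluster of 61 and 24 cells, with Gm3764 and Ptprz1 among its leading genes, had 163 and 154 CPM of Etv1, 227 and 68.3 CPM of Etv4 and 42.5 and 85.4 CPM of Etv5. Microglia-like clusters had Etv5 with little Etv4: the largest gave 31.5 and 21.2 CPM of Etv5 and 1.22 and 0.758 CPM of Etv4. A cluster led by the macrophage genes Pf4 and Mrc1 had 147 and 118 CPM of Etv1, against 18.8 and 20.9 CPM in that microglia-like cluster.

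The genotypes were compared in each class with edgeR's quasi-likelihood test on UMI sums per library, 3 against 3, with Benjamini-Hochberg adjustment over all genes tested in the class. A gene was tested if 10% or more of a genotype's cells had a UMI of it, and called at an adjusted p under 0.05 with a log2 change over 0.25 in size. A sum over a class cannot tell fewer cells of a subtype from less RNA per cell. At E14.5, 16 of the 48 possible tests (3 genes in 16 classes) passed the detection filter, 9 of Etv1, 2 of Etv4 and 5 of Etv5. None was called by edgeR or by DESeq2, and 1 had an unadjusted p under 0.05 with edgeR. In 12 of the 16 classes 0% of all tested genes were called, against 0.00977% in all kept cells, 0.14% in choroid plexus-like and 0.0099% in pontine progenitor-like cells. The highest share was 6.85% in all pontine-like cells, where none of the 3 genes passed the filter.

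In cycling granule progenitor-like cells at E14.5, Etv5 was 18.3, 7.20 and 21.1 CPM in controls and 22.2, 2.24 and 26.0 CPM in Atoh1S193A/- littermates. The members of the second pair were the lowest of their genotype, and the groups overlapped. The log2 difference was 0.22 ± 0.56 (SE; edgeR adjusted p = 1.0). Etv4 was 7.17, 0 and 6.33 CPM in the Atoh1S193A/- libraries, where the 0 among 97 cells allows up to 1.12 CPM.

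The single E14.5 test under 0.05 was Etv5 in Hox-low other progenitors, at 5.47, 10.8 and 9.43 CPM in controls and 5.63, 3.66 and 2.29 CPM in Atoh1S193A/- libraries. The highest Atoh1S193A/- value lay just above the lowest control value. The log2 difference was -1.18 ± 0.36 (edgeR unadjusted p = 0.00942, adjusted p = 0.813), with 0% of all genes called in this class. It did not pass, and Etv5 met the detection filter there only through the controls, the group with the higher values, so that the difference is a description.

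At E18.5, 26 of 54 tests in 18 classes passed the detection filter, 14 of Etv1, 3 of Etv4 and 9 of Etv5. Again none was called by edgeR in the main fit, which does not pair littermates, while 3 had an unadjusted p under 0.05. DESeq2 called 1, and calls with littermates fitted as a replicate block are given below. Between 0% and 0.522% of all genes were called in these classes. In cycling granule progenitor-like cells, where 0.284% were called, Etv5 was 29.1, 28.5 and 35.4 CPM in Atoh1S193A/- libraries, which overlapped the controls (log2 difference 0.06 ± 0.10, edgeR adjusted p = 1.0).

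The largest upward difference was Etv5 in the progenitors low in Otx2 and Tlx3. It was 11.2, 13.4 and 13.4 CPM in controls and 19.6, 16.0 and 21.3 CPM in Atoh1S193A/- libraries, with no overlap. The log2 difference was 0.57 ± 0.13 (edgeR unadjusted p = 0.00206, adjusted p = 0.163), in a class with 0.522% of genes called. With littermates fitted as a replicate block it was 0.58 and passed (adjusted p = 0.00983), as it did with DESeq2 (adjusted p = 0.0485) and without the detection filter (edgeR adjusted p = 0.00857).

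The Mfap4- and Zfp36l1-led cells belong to this group, and their share differed in the same direction. They were 0.469%, 0.705% and 0.736% of all kept cells in controls and 1.47%, 1.35% and 1.16% in Atoh1S193A/- libraries, which did not overlap (exact two-sided permutation test, p = 0.1, the smallest that 3 against 3 allows). Within these cells Etv5 was 153, 180 and 152 CPM in controls and 135, 165 and 174 CPM in Atoh1S193A/- libraries, with overlap and a log2 difference of -0.02 ± 0.15 (edgeR adjusted p = 0.992).

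In the rest of the group Etv5 was 6.93, 6.04 and 6.497 CPM against 8.03, 4.41 and 7.38 CPM. There the log2 difference was 0.03 ± 0.18 without the detection filter, which Etv5 did not pass (edgeR adjusted p = 1.0). These cells were picked after their values had been seen, and their part in the difference was not tested. With a limit of 10% mitochondrial UMIs and new clusters, the Etv5 difference over all progenitors low in Otx2 and Tlx3 was 0.12 (edgeR adjusted p = 1.0).

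In Tlx3-high progenitors, Etv5 was 76.2, 67.5 and 82.3 CPM in controls and 64.3, 63.8 and 80.0 CPM in Atoh1S193A/- libraries, and Etv4 11.3, 11.8 and 14.7 CPM against 11.3, 10.9 and 9.60 CPM. The ranges overlapped or touched. Etv5 was lower in the Atoh1S193A/- member of each littermate pair, while the Etv4 values of the first pair were alike. Neither gene passed under any alternative. The log2 differences were -0.16 ± 0.10 and -0.26 ± 0.15 (edgeR adjusted p = 0.908 and 0.843, with 0.432% of genes called).

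Etv1 gave the other differences under an unadjusted p of 0.05. In Tlx3-high granule neuron-like cells it was 32.5, 33.7 and 40.9 CPM in controls and 25.3, 24.8 and 30.0 CPM in Atoh1S193A/- libraries, with no overlap. The log2 difference was -0.44 ± 0.12 (edgeR unadjusted p = 0.00504, adjusted p = 1.0), in a class with 0% of genes called. Without the detection filter it passed narrowly (edgeR adjusted p = 0.0495).

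In Hox-positive other neurons at E18.5, Etv1 was 9.48, 8.16 and 24.1 CPM in controls and 3.88, 2.43 and 6.90 CPM in Atoh1S193A/- libraries. The control values rest on 22, 12 and 75 UMIs and the Atoh1S193A/- values on 10, 2 and 21. The groups did not overlap, and the third library of each was its highest. The log2 difference was -1.56 ± 0.46 (edgeR unadjusted p = 0.00574, adjusted p = 1.0). With littermates fitted as a replicate block it was -1.62 and passed (edgeR adjusted p = 0.0417), as it did without the detection filter (edgeR adjusted p = 0.00117). Etv1 met that filter only through the controls, where it was higher, so that the filtered values are a description.

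For all pontine-like cells at E18.5, Etv1 was 10.4, 7.02 and 27.6 CPM in controls and 15.0, 19.4 and 26.1 CPM in Atoh1S193A/- libraries, with a log2 difference of 0.33 ± 0.45 (edgeR adjusted p = 1.0). Control 3 lay apart from the other controls, and without it the difference was 1.22 (edgeR adjusted p = 0.763), whereas without control 2 it was 0.03 (edgeR adjusted p = 1.0). In ePN2-like neurons it was 0.12 ± 0.35 (edgeR adjusted p = 1.0). Of the 58 pathway genes none was called between genotypes in any E18.5 class. In these classes 0% to 0.522% of all genes were called, so that the list stood near the background.

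At E14.5 pathway genes were called in 1 class only, all pontine-like cells, where 27 were tested and 3 were higher in Atoh1S193A/- libraries and none lower. Erf, an ETS repressor gene, rose by 1.55 ± 0.21 on the log2 scale, Fgfr1 by 0.70 and Gabpa, another ETS gene, by 0.45. Among all genes of that class 5.24% were called higher. Without control 1 or Atoh1S193A/- replicate 3, only 0 and 3 genes of this class were called in all. The make-up of the class moved with the genotype: pontine progenitor-like cells were 69 of 849, 111 of 952 and 81 of 1483 in controls and 353 of 1319, 315 of 987 and 500 of 1688 in Atoh1S193A/- libraries. No pathway gene was called in any of the 4 pontine states on its own, and the part of the make-up was not tested. The median log2 difference was 0.19 over the 27 genes and -0.00079 over all genes.

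**Figure D5:**
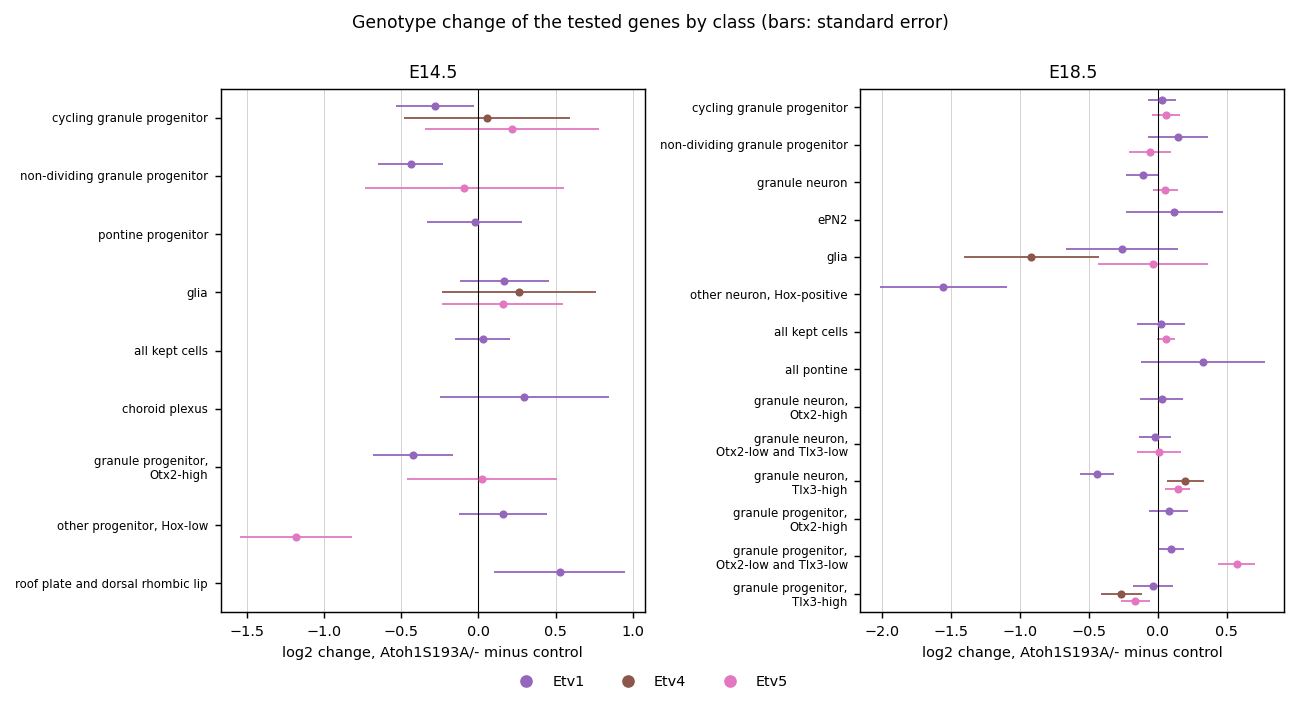
Log2 difference between Atoh1S193A/- and control for each of the 3 genes in each class where it passed the detection filter, at E14.5 (left) and E18.5 (right). Points are edgeR estimates and bars are standard errors; none of the points was called, and the largest are Etv1 in Hox-positive other neurons at E18.5 (-1.56) and Etv5 in Hox-low other progenitors at E14.5 (-1.18).

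Stages were compared in controls, E18.5 against E14.5, in a model of all 12 embryonic libraries. Of 24 tests in 8 classes, 14 passed the detection filter and 4 were called, of which 2 met the filter only through the E18.5 libraries, where the gene was higher, while 7% to 63.8% of all tested genes were called in these classes. Read against that background the 3 genes did not stand out. The control libraries serve in both the stage and the genotype comparisons.

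Summed over all kept cells, where 50.8% of genes were called, Etv1 rose from 8.70, 12.2 and 12.7 CPM at E14.5 to 20.7, 21.9 and 28.8 CPM at E18.5 (log2 change 1.00 ± 0.19, edgeR adjusted p = 0.00145). Etv5 rose from 4.58, 1.19 and 5.55 CPM to 21.9, 19.5 and 21.1 CPM (log2 change 2.39 ± 0.67, edgeR adjusted p = 0.0117). It met the detection filter only at E18.5, and without that filter the change was 2.40 (edgeR adjusted p = 0.00858). Neither pair of stages overlapped. With Cell Ranger 5.0.1 libraries only, the Etv5 change was 1.79 and did not pass (edgeR adjusted p = 0.153), which leaves 1 E14.5 control library that is assumed to vary like the other groups. The granule lineage-like share of kept cells rose beside them, from 22.7%, 7.08% and 24.5% to 73.2%, 73.4% and 65.9%, and its part in the change was not tested.

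Within the granule progenitors Etv5 did not pass. The cycling class was 1 Otx2-high cluster at E14.5 and 8 clusters at E18.5, of which 3 were Otx2-high and 3 Tlx3-high, so that its make-up differed between the stages, and the part of this was not tested. In these cells (37.5% of genes called) Etv5 had a log2 difference of 0.80 ± 0.42 (edgeR adjusted p = 0.143), and in non-dividing ones (33.7% called) of 1.20 ± 0.49 (edgeR adjusted p = 0.0806). The E18.5 values lay above all E14.5 values in both classes. Without the second E14.5 pair, a fit that was not planned, both passed, at 0.49 (edgeR adjusted p = 0.0209) and 0.78 (edgeR adjusted p = 0.00964). Over all alternatives the log2 difference ran from 0.38 to 1.17 in the cycling and from 0.57 to 1.73 in the non-dividing class.

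The Otx2-high progenitor class (35.9% of genes called) holds different clusters at each stage: at E14.5 1 non-dividing cluster and the cluster of all cycling granule progenitor-like cells, and at E18.5 1 non-dividing cluster and 3 cycling ones. Summed over the class, Etv1 fell from 10.7, 14.7 and 16.2 CPM to 7.13, 7.39 and 7.73 CPM (log2 change -0.95 ± 0.22, edgeR adjusted p = 0.00571), with no overlap. Etv5 was 11.9, 6.87 and 16.4 CPM and then 7.496, 6.61 and 7.55 CPM, with overlap (log2 difference -0.80 ± 0.41, edgeR adjusted p = 0.146). It met the detection filter only through E14.5, where its mean was higher, so that the filtered values are a description. It passed in a fit without the second E14.5 pair that was not planned (-1.01, edgeR adjusted p = 0.0103). The non-dividing Otx2-high clusters did not share this direction: Etv1 was 1.59, 0 and 1.82 CPM in the E14.5 controls and 2.69, 2.00 and 2.48 CPM in the E18.5 controls, and Etv5 was 1.90, 0 and 0.908 CPM and then 2.15, 3.67 and 4.55 CPM. The 0 values come from 13 cells of control 2. A stage change in like cells was not tested, and the change over the class cannot be told apart from its make-up.

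In all pontine-like cells (63.8% of genes called), Etv1 rose between the stages from 2.36, 3.87 and 3.68 to 10.4, 7.02 and 27.6 CPM (log2 change 2.16 ± 0.46, edgeR adjusted p = 0.00139). Here too the gene met the detection filter only at E18.5, and without that filter the change was 2.09 (edgeR adjusted p = 0.000186). Without E18.5 control 3, the highest library, the change was 1.30 (edgeR adjusted p = 0.00629). The E18.5 values were all higher, and the sub-cluster with 64.6 to 174 CPM above is part of them. In the glia-like class (7% called) none of the 3 genes passed, with log2 differences from -0.50 ± 0.40 for Etv1 to 0.90 ± 0.57 for Etv4.

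The pathway list moved unevenly between stages in controls. Of 27 listed genes tested in cycling granule progenitor-like cells, 9 rose and 2 fell (median log2 difference 0.20, against 0.02 over all genes), where 19.4% of all genes rose and 18.1% fell. The class joins the unlike clusters given above at each stage. The ligand genes Fgf9 and Fgf8 rose by 2.13 ± 0.20 and 1.95 ± 0.36 on the log2 scale. The receptor gene Fgfr2 fell by 1.69 ± 0.22 and the feedback gene Il17rd fell by 1.68 ± 0.27, while Erf rose by 0.84 ± 0.22.

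In Otx2-high progenitors, with the clusters given above, 6 of 27 rose and 2 fell, where 35.9% of all genes were called and 17.4% rose. Among them were Spry2 (log2 change 1.45 ± 0.32), Fgf9 (1.34 ± 0.18) and Fgfr2 (-0.84 ± 0.20). In all pontine-like cells 7 of 28 rose and 10 fell, where 32.9% of all genes rose and 30.8% fell, so that the list stood near the background. Pontine progenitor-like cells were 69, 111 and 81 of the 849, 952 and 1483 cells of this class in E14.5 controls while no E18.5 cluster had that name in the clustering used here (404 cells had it at 10% mitochondrial UMIs and 273 at resolution 2), and the part of this was not tested. Fgf15, a ligand gene of dividing neural progenitors, fell by 4.33 ± 0.52 on the log2 scale and Dusp4 fell by 1.96 ± 0.22. The receptor gene Fgfr4 fell as well (log2 change -1.95 ± 0.59), whereas Fgfr1 rose by 2.19 ± 0.13 and Atxn1, a partner of Capicua, by 1.92 ± 0.21. Pontine migrating neuron-like cells were named at both stages, from 5 clusters at E14.5 and 2 at E18.5 (38.4% of genes called). Fgfr2 had a log2 change of -2.48 ± 0.32 in them and Dusp6 of 1.39 ± 0.39. Fgfr1, Dusp4 and Atxn1 kept their directions there, at 1.35 ± 0.13, -1.26 ± 0.23 and 1.07 ± 0.38, while Fgf15 and Fgfr4 were not called.

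A genotype effect that differed between stages was tested as an interaction in the same model. None of the 14 tests that passed the filter was called by edgeR or by DESeq2, and 1 had an unadjusted p under 0.05, Etv1 in Hox-positive other neurons (difference of log2 differences -1.37 ± 0.60, edgeR unadjusted p = 0.0380, adjusted p = 1.0). Among all genes 0% to 1.57% were called.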

How the data were processed

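Hindbrain cells sorted for TdTomato were sequenced with 10x Genomics 3' chemistry. The authors deposited, per library, raw UMI counts per gene and barcode made with Cell Ranger on mm10. Per the file headers it was version 3.1.0 for 2 E14.5 controls and 5.0.1 elsewhere, and the alternatives leave those 2 out. Embryonic libraries are single embryos in littermate pairs, and P5 libraries pools of pups.

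Cells with at least 1000 genes and at most 5% mitochondrial UMIs were kept, and the 7.5% with the highest Scrublet score in each library were removed as doublets. Counts were scaled to 10000 per cell, and each stage was clustered on 2000 variable genes with 30 principal components and 15 neighbours (scanpy 1.11.5, leidenalg 0.10.2, resolution 1). Clusters were named by marker lists. Their naming limits, the Otx2 and Tlx3 groups, the Mfap4- and Zfp36l1-led group and the single tests followed through the alternatives were chosen after values had been seen, and the genes and lists with earlier results of these data known.

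UMIs were summed per library and class of at least 10 cells in every library and tested with edgeR 4.0.16 (quasi-likelihood, TMM, R 4.3.3, Benjamini-Hochberg over all genes of the class). DESeq2 1.42.0 was an alternative, as were other scaling factors, no detection filter, no doublet removal, 10% mitochondrial UMIs, resolution 2, a replicate block and leaving out libraries. Counts of E18.5 cycling granule progenitor-like cells (9865 genes) were also simulated. There edgeR recovered 200 of 200 changed genes with 6 false calls and DESeq2 200 of 200 with 16. The changes were simulated at sizes above most differences judged here and with a fixed spread. This check therefore does not give the power for smaller changes.

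Libraries with the same number are littermates per the study's methods. Their deviations from the group means correlated at 0.668, 0.806 and 0.695 at E14.5 and at 0.749, 0.775 and 0.896 at E18.5. Libraries of different numbers were not correlated, so these values cannot show that the number pairs them. Pathway genes are named where called, at most 8 per comparison by size of change. Sequences are RefSeq's (GRCm38.p6) and gene positions those of the files' build. Median UMIs per barcode were 8433 to 18507 across libraries.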

Additional observations from a re-analysis of the deposited data

How the results depend on the processing

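The count of called genotype tests of the 3 genes at E14.5, and that of the interaction, stayed at 0 under every alternative run. At E18.5 the count of 0 became 1 with DESeq2, 3 without the detection filter and 2 with the replicate block by littermate pair, and the tests concerned are given in the report. The number marks littermates within a stage, so the block was not read for the stage tests. The 4 called stage tests became 8 without the detection filter and 4 to 7 with libraries left out, with 7 both without E14.5 Atoh1S193A/- replicate 2 and without the second E14.5 pair.

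The small Etv5 difference between genotypes in cycling granule progenitor-like cells had no stable sign. At E18.5 it was 0.06, and -0.00054 without control replicate 2 and -0.0397 without Atoh1S193A/- replicate 3, so that it ran from -0.0397 to 0.143 over the left-out libraries. At E14.5 it was 0.22, and -0.09 without control replicate 2, -0.18 without Atoh1S193A/- replicate 3 and -0.23 with Cell Ranger 5.0.1 only, which leaves 1 control library, and it ran from -0.18 to 0.59 over the left-out libraries. The cause was not tested.

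Mean levels moved by more than 1 SD in some classes. At 10% mitochondrial UMIs, 43 control means of the embryonic classes moved and 86 did not, and at P5 15 moved and 42 did not. At that limit PN2-like cells went from 2295 to 812 and PN3-like cells from 976 to 2514. Etv5 in cycling granule progenitor-like cells at E18.5 went from 29.2 to 25.0 CPM at 10% mitochondrial UMIs. In Otx2-high progenitors it went from 7.22 to 5.71 CPM at that limit, to 6.58 without doublet removal and to 8.56 at resolution 2, and in Tlx3-high progenitors from 75.3 to 62.6 without doublet removal. Etv1 in PN6-like neurons went from 96.6 to 89.7, 65.8 and 93.1 CPM in the same order of settings. Unthinned, the shares of cycling progenitors with an Etv5 UMI were 23.8% at E18.5 and 19.0% at E14.5. In controls, Etv4 rested on 3 to 10 UMIs a library in the Mfap4- and Zfp36l1-led group. Its genotype difference there was uncertain (log2 difference -0.26 ± 0.47, edgeR adjusted p = 0.932).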
